A study of Mus musculus with 12 samples.

Results

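The 40 genes described here code for the folding machinery of the endoplasmic reticulum (ER) and for the unfolded protein response. They were given as a list of symbols, and all 40 were found by symbol among the 22711 genes of the deposited expression table. The list holds 10 chaperones and co-chaperones, 7 disulfide enzymes and related proteins, 8 genes of ER-associated degradation, 5 stress sensors and transcription factors, 5 targets of the stress response, 4 genes of translocation and export, and Wfs1.

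RNA was sequenced from mouse pancreatic islets in 12 libraries, 3 in each of 4 groups. Every group came from mice of the strain RIP-rtTA; TetO-VEGF-A, in which the rat insulin promoter (RIP) drives the reverse tetracycline transactivator in beta cells and doxycycline (Dox) then switches on a VEGF-A transgene. The groups were whole islets with No Dox, whole islets after 1 week Dox, and CD11b+ macrophages and CD31+ endothelial cells that were sorted from dispersed islets after 1 week Dox. The No Dox islets carried both transgenes too, and no group lacked them. The labels used here give no age and do not say whether replicates came from separate animals, so the p-values measure the spread between these libraries, which may in part be technical.

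Secretory and membrane proteins fold in the ER with the help of chaperones, are cross-linked by disulfide enzymes, and are passed to the cytosol for degradation when folding fails. Unfolded protein activates the sensors IRE1 (Ern1), PERK (Eif2ak3) and ATF6. IRE1 splices Xbp1 mRNA, PERK phosphorylates the translation factor eIF2alpha and so raises ATF4 protein, and together with ATF6 they induce chaperone, degradation and stress genes. Beta cells make large amounts of proinsulin, a disulfide-bonded protein, and depend on this machinery. The values below are RNA levels per gene. They do not separate spliced from unspliced Xbp1 and do not report on sensor activity.

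The classical binding element of this response, the ER stress response element (ERSE), is shown as a sequence that some of the folding genes share. It was searched as CCAAT, 9 bases and CCACG, and its variant ERSE-II as ATTGG, 1 base and CCACG, on both strands of RefSeq promoters (GRCm38.p6, 250 bases before to 50 after the start). Of the 40 genes, 36 had a promoter in that table. An ERSE match stood in 10 of the 36 (27.8%) and in 37 of 27025 genes with a promoter (0.137%). The 40 were listed as genes of this response, so this contrast describes the list and is not a test. These are the matches, 5' to 3' on the gene's strand, with the searched letters in capitals and the spacer in lower case; a match on the opposite strand begins with CGTGG.

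Hspa5, chr2:34772025-34772043: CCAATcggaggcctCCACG
Hsp90b1, chr10:86705638-86705656: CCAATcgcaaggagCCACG
Hsp90b1, chr10:86705533-86705551: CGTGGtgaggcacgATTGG
Calr, chr8:84847075-84847093: CGTGGtcgaccctcATTGG
Canx, chr11:50325800-50325818: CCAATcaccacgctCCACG
Dnajc3, chr14:118937827-118937845: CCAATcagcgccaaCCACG
Ero1lb, chr13:12565682-12565700: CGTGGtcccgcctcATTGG
Pdia6, chr12:17266491-17266509: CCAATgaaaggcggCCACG
Creld2, chr15:88819520-88819538: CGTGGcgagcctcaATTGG
Syvn1, chr19:6046532-6046550: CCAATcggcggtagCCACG
Derl3, chr10:75893242-75893260: CGTGGgacttccccATTGG

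Hsp90b1, with 2 matches, was the 1 gene of the 27025 that had more than 1. ERSE-II matched in Dnajb11 and Herpud1, and in 12 genes (0.0444%) in all. Neither element matched in 24 of the 36 promoters.

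Dnajb11, chr16:22857852-22857862: ATTGGcCCACG
Herpud1, chr8:94386377-94386387: ATTGGgCCACG

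The bare letters CCACG, which are part of both elements, stood in 28 of the 36 promoters (77.8%) against 35.5% of all genes. The XBP1-binding letters TGACGTGG were in 0 of the 36 windows and in 0.714% of all genes. The ATF4 element TTGCATCA matched in Chac1 and Herpud1, 2 of the 36, and in 1.03% of all genes. A match is a description of the letters in the window and does not show that a factor was bound. Below are the 250 bases before the start for Hspa5, the textbook ERSE gene, for Ero1lb, the 1 of the 40 called between No Dox and Dox islets, and for Chac1, which of the 40 differed most between the sorted cells. Capitals mark the ERSE letters in the first pair and the ATF4 element in Chac1.

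Hspa5, chr2:34771840-34772089, + strand: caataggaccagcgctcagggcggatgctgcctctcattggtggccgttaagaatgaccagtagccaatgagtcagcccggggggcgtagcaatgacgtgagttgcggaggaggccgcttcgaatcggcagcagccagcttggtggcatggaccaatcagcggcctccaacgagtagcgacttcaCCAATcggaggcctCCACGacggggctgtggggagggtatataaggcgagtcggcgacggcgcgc
Ero1lb, chr13:12565633-12565882, + strand: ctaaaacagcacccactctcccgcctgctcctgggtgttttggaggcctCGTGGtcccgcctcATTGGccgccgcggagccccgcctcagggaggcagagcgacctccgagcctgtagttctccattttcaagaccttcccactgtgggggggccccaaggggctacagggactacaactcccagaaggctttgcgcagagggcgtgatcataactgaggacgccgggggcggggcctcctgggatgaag
Chac1, chr2:119350992-119351241, + strand: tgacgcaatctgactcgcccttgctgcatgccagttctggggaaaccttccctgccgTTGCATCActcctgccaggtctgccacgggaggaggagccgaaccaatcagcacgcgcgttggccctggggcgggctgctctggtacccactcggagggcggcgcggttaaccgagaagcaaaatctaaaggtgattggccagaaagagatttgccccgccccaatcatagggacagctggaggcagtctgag

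The deposited values are the authors' normalized signal, a linear scale with a floor of 1, which summed to between 17626506 and 25218786 units per library. Taking the commonest value above the floor as 1 read, the libraries hold an estimated 3735494 to 17700969 reads, with macrophage replicate 3 the shallowest and Dox islet replicate 3 the deepest. Levels are not per length, so levels are compared between libraries and not between genes. All 40 genes passed the filter on low values in every comparison. Among the islet libraries, No Dox replicate 2 and Dox replicate 1 stood apart. Their deviations from the group mean rose with a gene's GC content (Spearman's rho 0.65 and 0.58 over all genes, 0.53 and 0.65 over the 40). The other 4 islet libraries gave -0.33 to -0.46 over all genes and -0.16 to -0.61 over the 40. Deviations from a group mean add up to 0 over its 3 libraries, so these falling slopes are not independent of the rising ones. Sorted cells carried their own markers: the 13 macrophage markers took 1.81 to 1.86% of signal in macrophages and at most 0.0182% in endothelial cells, and the 12 endothelial markers 1.97 to 2.15% in endothelial cells and at most 0.0160% in macrophages. Of 19 acinar markers, the 16 secretory products took 0.145%, 2.15% and 0.00669% in macrophage replicates 1 to 3, and 0.0285%, 0.603% and 0.00162% in endothelial replicates 1 to 3. Of the other 3, which are transcription factors, Rbpjl was at 3023, 3342 and 5462 in macrophages and at most 99.0 in any other library. The 10 fibroblast and mural markers took 0.0783%, 0.0732% and 0.286% in endothelial replicates 1 to 3. In macrophage replicates 1 to 3 they took 0.0232%, 0.0232% and 0.0791%.

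**Figure D1:**
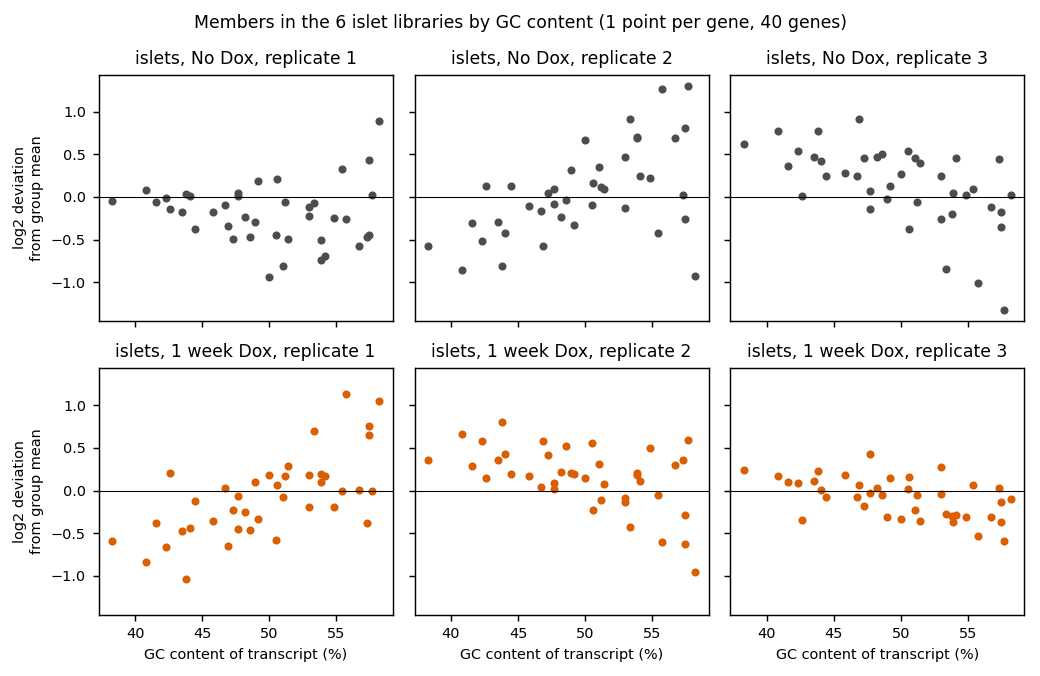
Log2 deviation of each of the 40 genes from its group mean (vertical axis) against the GC content of its transcript in percent (horizontal axis), 1 panel for each of the 6 islet libraries and 1 point per gene. The points climb with GC content in No Dox replicate 2 and Dox replicate 1 and slope the other way in the other 4 libraries, most weakly in No Dox replicate 1.

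Summed over the 40 genes, the signal was highest in No Dox islets, at 1.38 to 2.00% of each library. It was 0.829 to 1.22% in Dox islets, 0.788 to 0.883% in macrophages and 0.539 to 0.561% in endothelial cells. In this sum the libraries of the No Dox islets and of the endothelial cells lay apart from all the others. Genes of high signal weigh most in it, and Hsp90b1 and Ero1lb had the highest means in No Dox islets (65348 and 59782). By role, the shares of No Dox and Dox islets overlapped for chaperones (0.596 to 0.937% and 0.341 to 0.606%), stress targets, and translocation and export. They did not overlap for disulfide enzymes, which include Ero1lb (0.429 to 0.631% and 0.197 to 0.275%), degradation genes, sensors and factors, or Wfs1. The group with the highest mean was No Dox islets for 27 of the 40, macrophages for 10, Dox islets for Sel1l and Ssr3, and endothelial cells for Chac1. Over 15105 genes, No Dox islets held the highest mean for 28.4% and macrophages for 31.3%. Endothelial cells held the lowest mean for 25 of the 40, and for 26.1% of the 15105. The 10 with their highest mean in macrophages were Hspa5, Calr, Dnajb11, Sdf2l1, Creld2, Edem1, Atf6, Atf4, Ddit3 and Ppp1r15a. Replicates varied most in the islets: the median coefficient of variation over the 40 was 30.6% in No Dox islets, 22.2% in Dox islets, 16.4% in macrophages and 9.27% in endothelial cells.

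**Figure D2:**
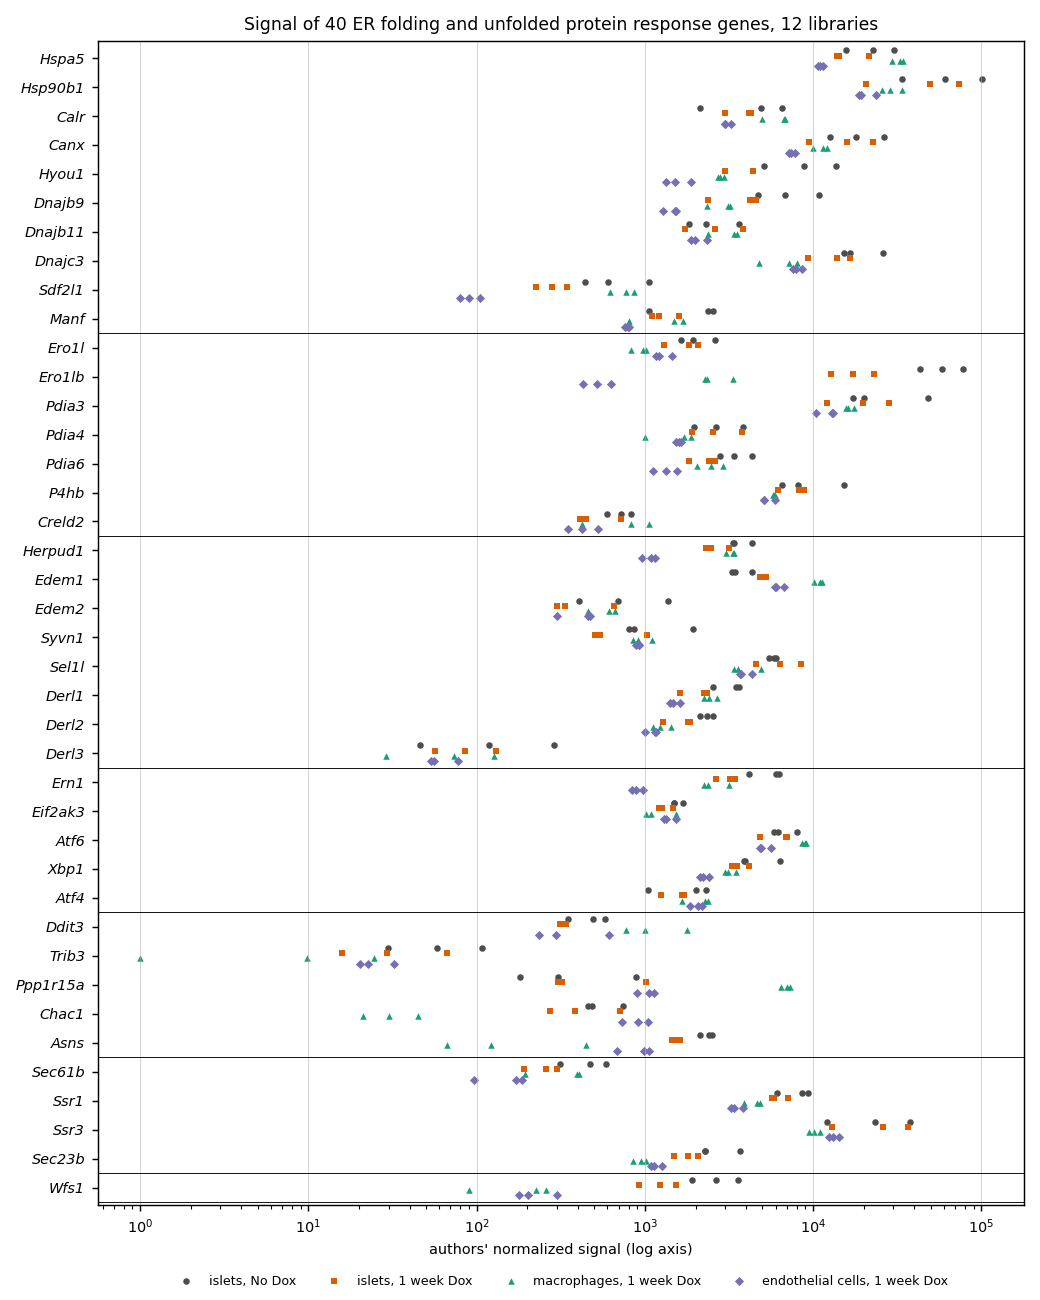
Authors' normalized signal (horizontal log axis) of the 40 genes in all 12 libraries, grouped by role from top to bottom: chaperones, disulfide enzymes, degradation, sensors and factors, stress response targets, translocation and export, and Wfs1. Each mark is 1 library, coloured by group. Ero1lb and Wfs1 separate islets from sorted cells, Ppp1r15a and Edem1 are highest in macrophages, and Chac1 and Asns are lowest there.

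The first comparison asked what 1 week of Dox did to whole islets. Of the 40 genes, 1 fell and none rose at an adjusted p under 0.05 in limma. The gene that fell was Ero1lb. Over all 14443 genes tested, 5.74% were called (4.33% higher and 1.41% lower). At an unadjusted p under 0.05 there were 7 of the 40 (17.5%), all lower, and 3000 of all genes tested (20.8%), so the share was near that of all genes. The estimates leaned one way, with 35 below 0 and 5 above, and a median log2 difference of -0.48 against 0.11 over all genes. In 15 of the 40, all 3 Dox libraries lay below all 3 No Dox libraries, and in Edem1 they lay above; over all genes 9.64% were separated downwards and 15.7% upwards. In whole islets, fewer cells of a type and less RNA per cell cannot be told apart. The islets' cell type markers moved as well: of 13 beta cell markers 7 fell and none rose, and their summed share of signal ran from 2.17 to 3.57% without Dox and from 0.983 to 1.05% with it. Other endocrine markers took 1.09 to 1.95% and 0.628 to 0.772%. Of 12 endothelial markers 8 rose (0.339 to 0.411% of signal, then 0.792 to 0.904%), and of 10 fibroblast and mural markers 4 rose (0.351 to 0.678%, then 1.23 to 2.09%). Of 13 macrophage markers 5 rose, from 0.0256 to 0.0477% of signal without Dox and 0.0771 to 0.124% with it. Of 18 acinar markers tested none was called, with a median log2 difference of 1.47. The 19 on that list took 0.192 to 0.724% of signal without Dox and 0.478 to 1.60% with it, so these ranges overlapped. None of these markers was at the floor in all 3 libraries of a group. Their part in the results of this comparison was not tested.

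Among the disulfide enzymes, Ero1lb (chr13:12658150-12701793 in mm9, the build of every gene position from here on) codes for the ER oxidase that is enriched in the pancreas and reoxidizes protein disulfide isomerases. Its signal was 58484, 43316 and 77546 in the No Dox libraries and 12694, 23117 and 17155 in the Dox libraries. The highest Dox library lay below the lowest No Dox library. The means were 59782 ± 17152 and 17655 ± 5230 (SD, n = 3), a 3.39-fold lower level, and the log2 difference was -1.76 (SE 0.40, adjusted p = 0.0342). Without both GC-following libraries it was -1.76 (adjusted p = 0.0411). The call was lost with No Dox replicate 1 or 3 or any of the 3 Dox replicates left out, where the adjusted p was 0.0768 to 0.129, and with no filter on low values. The paralog Ero1l (chr14:45902879-45938237), the more widely expressed oxidase, had 1938, 1642 and 2595 in No Dox and 1304, 2062 and 1817 in Dox islets. Its groups overlapped, with a log2 difference of -0.25 (adjusted p = 0.749) and a 95% interval of -0.95 to 0.45. The remaining disulfide genes (Pdia3, Pdia4, Pdia6, P4hb and Creld2) had differences of -0.61 to -0.0343, none past the threshold.

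None of the 10 chaperone genes passed. Hspa5, which codes for the ER Hsp70 chaperone BiP (chr2:34627490-34632051), had 15601, 22698 and 30122 in No Dox and 13793, 21476 and 14235 in Dox islets. The groups overlapped and the difference was -0.45 (SE 0.37, adjusted p = 0.586). Hsp90b1, the ER Hsp90 (GRP94; chr10:86152954-86168254), ranged widely, with 60983, 33920 and 101141 in No Dox and 20511, 73435 and 49308 in Dox islets, and in each group the lowest library was the one that rose with GC content. Its difference was -0.50 (SE 0.58, adjusted p = 0.722). An antisense lincRNA shares 10.3% of its exon bases, and whether counting used strand is not stated.

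The 3 chaperone genes whose islet groups did not overlap were Sdf2l1, Hyou1 and Dnajb9. Sdf2l1, whose product works with BiP and its DnaJ partner, had 439, 1063 and 603 in No Dox and 282, 346 and 227 in Dox islets, a difference of -1.22 (SE 0.42, adjusted p = 0.12). Hyou1, the nucleotide exchange factor of BiP, gave 5122, 13698 and 8797 in No Dox islets and 4421, 4395 and 3007 in Dox islets, a difference of -1.13 (SE 0.39, adjusted p = 0.123). In these genes the No Dox replicate 2 library was the highest of the 6. Dnajb9, a DnaJ co-chaperone, had 6768, 4719 and 10762 against 2373, 4582 and 4222 and a difference of -0.97 (SE 0.39, adjusted p = 0.189). It has the lowest GC content of the 40, at 38.3%, and No Dox replicate 2 was its lowest No Dox library. Sdf2l1, Hyou1 and Dnajb9 passed the threshold once each library's GC trend was removed, as did Ern1. The lectin chaperones Calr and Canx, which bind glycoproteins, differed by -0.12 and -0.27 with overlapping groups. Manf, Dnajc3 and Dnajb11 overlapped as well, at -0.53, -0.54 and 0.0575.

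Among the sensors, Ern1 (IRE1; chr11:106255964-106349166) had 6250, 6052 and 4167 in No Dox and 3225, 2640 and 3447 in Dox islets. Its groups did not overlap, but the difference of -0.81 (SE 0.30, adjusted p = 0.147) was not past the threshold. Eif2ak3 (PERK) had 1500, 1689 and 1492 in No Dox islets and 1470, 1207 and 1257 in Dox islets, apart by a small margin, with a difference of -0.25 (adjusted p = 0.701). Atf6 differed by -0.11 (adjusted p = 0.907), Xbp1 by -0.34 (adjusted p = 0.62) and Atf4 by -0.15 (adjusted p = 0.881), and in these 3 the groups overlapped. Leaving out 1 islet library turned the sign of Atf6 and of Atf4: No Dox replicate 3 for either gene, and Dox replicate 1 for Atf6.

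Degradation genes did not pass. Edem1, which codes for a mannosidase-like protein that marks misfolded glycoproteins for disposal, was the one whose Dox libraries all lay above the No Dox libraries. It had 3438, 3276 and 4348 in No Dox and 5213, 5236 and 4827 in Dox islets, a difference of 0.48 (SE 0.27, adjusted p = 0.38). Derl1, Derl2 and Herpud1, parts of the retrotranslocation machinery, lay lower in every Dox library, with differences of -0.64, -0.52 and -0.48. Derl3, a derlin typical of secretory glands, was low and scattered, with 118, 289 and 46.0 in No Dox and 85.0, 129.9 and 56.6 in Dox islets (difference -0.44, adjusted p = 0.812). Edem2, Syvn1 and Sel1l overlapped, at -0.84, -0.75 and 0.12.

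The stress response targets did not pass either. Ddit3 codes for CHOP, a transcription factor of prolonged stress (chr10:126727830-126733344). It had 584, 348 and 494 in No Dox and 322, 311 and 339 in Dox islets, where the 3 libraries were close together and below the lowest No Dox library; the difference was -0.52 (SE 0.36, adjusted p = 0.486). Asns, asparagine synthetase, an ATF4 target, had 2406, 2497 and 2116 in No Dox islets and 1459, 1613 and 1494 in Dox islets, a difference of -0.62 (SE 0.27, adjusted p = 0.221). Ppp1r15a (GADD34), the phosphatase subunit that reverses eIF2alpha phosphorylation, had 306, 880.3 and 181 in No Dox islets and 1018, 306 and 320.4 in Dox islets, with the highest value of each group in the library that followed GC content. Chac1 and Trib3 had overlapping groups, with differences of -0.39 (adjusted p = 0.709) and -0.84 (adjusted p = 0.618).

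Wfs1 (chr5:37357343-37380221) codes for wolframin, an ER membrane protein that is abundant in beta cells and mutated in Wolfram syndrome. It had 1896, 2658 and 3556 in No Dox and 921, 1535 and 1231 in Dox islets. The groups did not overlap and the Dox mean was 2.2-fold lower, but the difference of -1.12 (SE 0.34, adjusted p = 0.0848) did not pass. Sec61b of the translocon and Sec23b of the COPII coat, which buds vesicles from the ER, also lay lower in every Dox library (-0.85 and -0.59, not called). Ssr1 and Ssr3, subunits of the translocon-associated complex, overlapped.

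**Figure D3:**
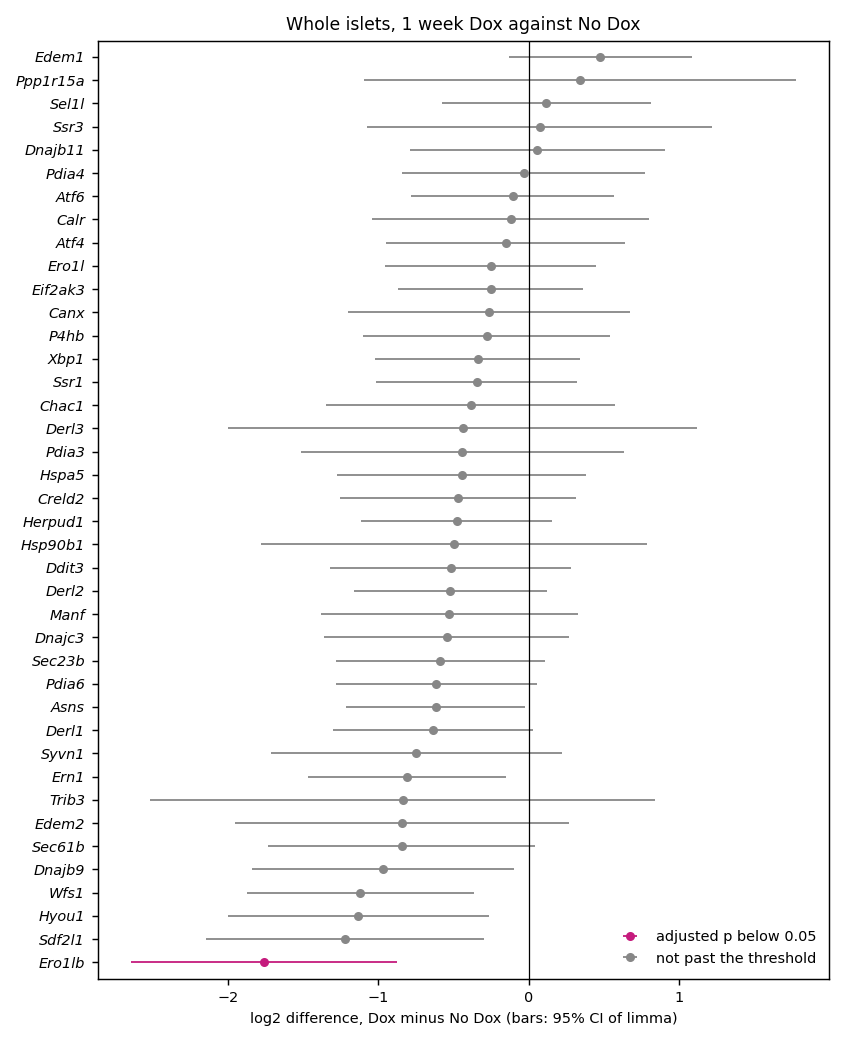
Log2 difference between Dox and No Dox whole islets (horizontal axis) for the 40 genes, sorted by size; bars are limma's 95% confidence intervals and n = 3 libraries per group. The points of 35 genes lie below 0, and Ero1lb at -1.76 is the one past the threshold.

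A further 110 genes of the pathway, listed by role, gave 107 that were tested in islets, of which 1 rose and none fell; 12 (11.2%) had an unadjusted p under 0.05, a smaller share than over all genes (20.8%). The gene that rose was Gpx8, a peroxidase of the ER, with a mean signal of 1206 ± 212 against 264 ± 82.7 (SD, n = 3) and a log2 difference of 2.23 (SE 0.36, adjusted p = 0.0131). Their median difference was -0.14. The 4-group fit called 9 of them, and the fit with no filter on low values 0.

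The second comparison set the sorted macrophages against the sorted endothelial cells, both after 1 week Dox. In macrophages 21 of the 40 genes were higher and 4 lower; over all 13726 genes tested 27.7% were higher and 31.5% lower, 59.1% in all. The median log2 difference was 0.51, against -0.10 over all genes. Numbers in parentheses after a gene are log2 differences, with their SE and limma's adjusted p where given. Chaperone genes were mostly higher (8 of 10, none lower), as were 3 of 7 disulfide genes, 3 of 8 degradation genes and 3 of 5 sensors and factors. The stress targets split, with Ppp1r15a and Ddit3 higher and Chac1 and Asns lower. Ero1l and Ssr3 were the other lower genes. With no filter on low values, with the GC trends removed or with the 4 groups fitted together, 2 genes were lower in place of 4. Replicate numbers were taken to pair these libraries because same-numbered ones deviated together, but the labels do not state a pairing. The SE and p-values of this comparison leave it out. With the replicate number as a block in limma, Creld2, Edem2 and Manf were also higher (adjusted p = 0.0153, 0.0316 and 0.0260).

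Hspa5 gave 32747, 34352 and 29580 in macrophages and 11014, 11457 and 10649 in endothelial cells, 2 tight and separate groups. Its mean was 32226 ± 2428 against 11040 ± 404 (SD, n = 3), 2.92-fold higher in macrophages, with a log2 difference of 1.54 (SE 0.09, adjusted p = 2.08e-06). Sdf2l1 had the largest positive difference of the 40. Its values were 776, 867 and 622 in macrophages and 104, 80.2 and 90.5 in endothelial cells, so the lowest macrophage library was well above the highest endothelial one. The mean was 8.23-fold higher and the difference 3.02 (SE 0.23, adjusted p = 1.16e-05). Hsp90b1 was higher by less, at 28514, 33734 and 25679 against 18825, 19225 and 23783, a difference of 0.51 (SE 0.13, adjusted p = 0.012). It lost the call with no filter and with the 4 groups fitted together. Calr (0.99), Dnajb9 (0.99), Hyou1 (0.85), Canx (0.58) and Dnajb11 (0.56) were also higher. Dnajb11 lost the call in 6 alternatives, and Canx with the 4 groups fitted together. Dnajc3, an inhibitor of eIF2alpha kinases that also acts as a co-chaperone, had a difference of -0.30 (adjusted p = 0.185) and was not called.

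Ero1lb differed between the sorted cells too, with 2268, 3325 and 2345 in macrophages and 429.6, 629 and 519 in endothelial cells. No macrophage library overlapped an endothelial one, and the mean was 5.03-fold higher (2.32, SE 0.20, adjusted p = 2.25e-05). Over all 12 libraries the 4 groups did not overlap for Ero1lb: No Dox islets were highest, then Dox islets, macrophages and endothelial cells. Beta cell markers also stood higher in macrophages, with 9 of the 11 tested called higher. They took 0.0337%, 0.0161% and 0.0166% of signal in macrophage replicates 1 to 3, and 0.00262 to 0.00318% in endothelial cells. Secretory acinar products took their highest share in replicate 2 of both sorted cell types (2.15% and 0.603%), where Ero1lb was highest too. The other replicates ran the other way. The acinar share was higher in replicate 1 than in replicate 3 of macrophages (0.145% and 0.00669%) and of endothelial cells (0.0285% and 0.00162%), and Ero1lb was lower. The beta cell share was highest in macrophage replicate 1, where Ero1lb was lowest of the macrophage libraries. The part of beta or acinar RNA in the Ero1lb difference was not tested. Its paralog Ero1l ran the other way, 826, 971 and 1021 in macrophages and 1169, 1449 and 1214 in endothelial cells, a difference of -0.44 (SE 0.14, adjusted p = 0.0294). That call was lost in 8 alternatives, among them the removal of GC trends. Pdia6 (0.88) and Pdia3 (0.43) were higher, while P4hb, the canonical protein disulfide isomerase, differed by 0.12 with an interval of -0.09 to 0.34. Pdia3 lost the call with no filter and with the 4 groups fitted together. Pdia4 was not called (-0.11).

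Herpud1, a membrane protein of the degradation complex, had 3337, 3402 and 3019 in macrophages and 1092, 1145 and 959.6 in endothelial cells, 3.05-fold higher on the means (1.61, SE 0.11, adjusted p = 7.21e-06). Edem1 and Derl1 were also higher in macrophages, by 0.79 (adjusted p = 0.000119) and 0.70 (adjusted p = 0.000983). The ubiquitin ligase gene Syvn1 and its adaptor Sel1l, the core of the degradation complex, differed by 0.0621 and -0.00457, with intervals of -0.27 to 0.39 and -0.37 to 0.36. Derl3 was low in both cell types, with 29.1, 73.3 and 126 in macrophages and 53.3, 78.0 and 56.2 in endothelial cells, and overlapped (difference 0.0719, adjusted p = 0.92). Derl2 was not called (0.18).

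Of the sensors, Ern1 was higher in macrophages, with 2389, 2259 and 3174 against 838, 886 and 975 and a difference of 1.52 (SE 0.15, adjusted p = 5.75e-05). Atf6 had 8552, 9090 and 8960 against 4923, 5606 and 4814 (0.80, SE 0.09, adjusted p = 0.000133). Eif2ak3 gave 1018, 1089 and 1526 in macrophages and 1299, 1539 and 1338 in endothelial cells, which overlapped (-0.22, adjusted p = 0.311). Among the transcription factors Xbp1 was higher by 0.51 (adjusted p = 0.00341), a call lost with the 4 groups fitted together. Atf4 had 2271, 2361 and 1656 in macrophages and 2071, 2200 and 1856 in endothelial cells, a difference of 0.0235 (adjusted p = 0.909) with an interval of -0.34 to 0.39.

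Of all the roles, the stress targets spread the widest. Ppp1r15a had 7316, 7018 and 6481 in macrophages and 1135, 1055 and 903 in endothelial cells, 6.73-fold higher on the means (2.75, SE 0.12, adjusted p = 4.1e-07). Ddit3 had 768, 1001 and 1772 in macrophages and 236, 295 and 609 in endothelial cells, with replicate 3 the highest of each group and no overlap (1.67, SE 0.41, adjusted p = 0.00871). It lost the call with no filter on low values.

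Chac1, a stress-induced enzyme that degrades glutathione (chr2:119176965-119180117), ran against them. It gave 21.3, 45.1 and 30.2 in macrophages and 909, 734 and 1038 in endothelial cells, a level 27.8-fold lower in macrophages (-4.80, SE 0.34, adjusted p = 6.42e-06). The macrophage values stand for an estimated 13, 16.4 and 5 reads, and those of endothelial cells for 444, 488 and 332. Asns had 66.8, 445 and 122 in macrophages and 1064, 990.0 and 683 in endothelial cells, a difference of -2.53 (SE 0.61, adjusted p = 0.00794). With no filter on low values Asns did not pass (adjusted p = 0.0654). Macrophage replicate 2, the sorted library with the highest acinar share, was also the highest macrophage library for Asns and Chac1. Without it the differences were -3.29 (adjusted p = 0.000176) and -5.07 (adjusted p = 1.18e-05). Trib3, a pseudokinase induced by ATF4 and CHOP, was low in the sorted cells, with 9.82, 24.8 and 1 in macrophages, where 1 is the floor, and 32.2, 22.6 and 20.3 in endothelial cells. Its groups overlapped (-1.63, adjusted p = 0.144).

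Sec61b (1.11) and Ssr1 (0.34) of the translocation genes were higher in macrophages, while Ssr3 was lower (-0.38, adjusted p = 0.00936) and Sec23b was not called (-0.31). Sec61b lost the call in 5 alternatives and Ssr1 in 6, and Ssr3 with GC trends removed and with the 4 groups fitted together. Wfs1 was low in sorted cells, with 260.0, 227 and 90.3 in macrophages and 299.9, 178 and 203 in endothelial cells. Those values overlapped (-0.34, adjusted p = 0.534).

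**Figure D4:**
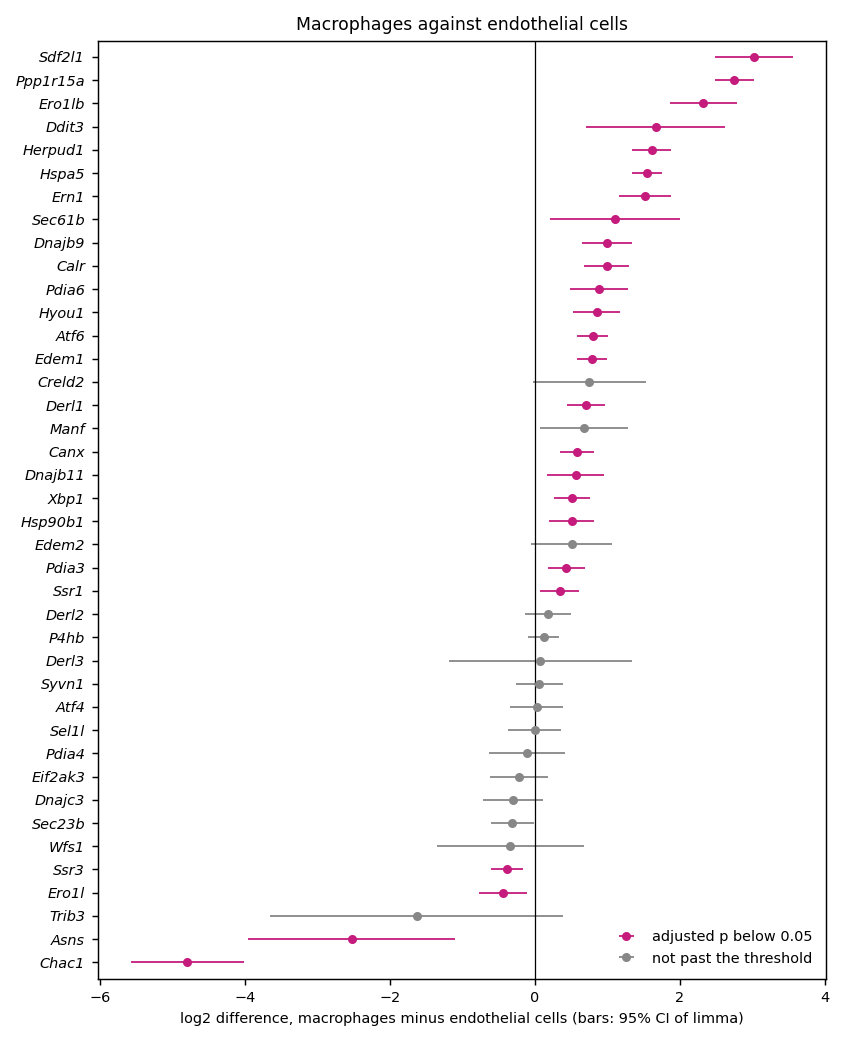
Log2 difference between sorted macrophages and sorted endothelial cells (horizontal axis) for the 40 genes, sorted by size; bars are limma's 95% confidence intervals and n = 3 libraries per group. Of the 25 coloured points 21 lie above 0, up to Sdf2l1 at 3.02, and 4 below, down to Chac1 at -4.80.

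Between the sorted cells, 27.7% of all genes tested were higher in macrophages and 31.5% lower. The 12 genes with an ERSE or ERSE-II match had 8 higher and none lower in macrophages, with a median difference of 0.67. The 24 promoters without a match had 10 higher and 4 lower and a median of 0.15. In islets the medians with and without a match were -0.48 and -0.41. They were 0.18 and -0.35 for macrophages against Dox islets, and -0.62 and -0.62 for endothelial cells against Dox islets. These are descriptions of 2 sets of genes, and no test between them was made.

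Of the other genes of the pathway, 104 were tested between the sorted cells. In macrophages 22 were higher and 30 lower (27.7% and 31.5% over all genes), with a median of -0.07. At an unadjusted p under 0.05 in limma there were 57 (54.8%), a smaller share than over all genes (63.2%). The 4-group fit called 31 in place of 52. The list of the integrated stress response, the arm that eIF2alpha kinases share, had 10 higher and 2 lower of 21. Its cystine transporter gene Slc7a11 had a mean of 10923 ± 427 against 34.9 ± 12.7 (SD, n = 3), a difference of 8.32 (SE 0.28, adjusted p = 1.39e-07). Gdf15, a stress-induced cytokine, gave 912 ± 102 against 19.5 ± 21.9, a difference of 6.01 (SE 0.67, adjusted p = 0.000104). Atf3, a transcription factor of the same arm, gave 45780 ± 4186 against 3891 ± 513, a difference of 3.56 (SE 0.12, adjusted p = 1.6e-07). The disulfide list had 7 lower and none higher of 12. The largest falls were in Gpx8 (19.6 ± 14.5 against 1227 ± 116, -6.11, SE 0.46, adjusted p = 9.81e-06), the prolyl isomerase gene Fkbp14 (46.2 ± 7.40 against 779 ± 142, -4.04, SE 0.27, adjusted p = 4.52e-06) and the ER peroxidase gene Gpx7 (18.3 ± 5.33 against 235 ± 50.1, -3.62, SE 0.37, adjusted p = 5.87e-05).

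Sorted macrophages were next set against whole Dox islets, to show how the genes stood in the sorted cells and in the whole tissue. Sorted cells came from dispersed islets and the islet libraries from whole islets. Cell type and handling therefore cannot be told apart in this comparison or the next. In macrophages 6 of the 40 were higher and 8 lower, while over all 14479 genes tested 21.3% were higher and 31.4% lower, 52.7% in all. The median log2 difference was -0.23 against -0.20 over all genes. With GC trends removed it was 0.12 against 0.03, with 22 of the 40 estimates above 0 in place of 16, so the direction of the median depends on that step. Without Dox islet replicate 1 there were 15 lower genes, and without Dox islet replicate 2 there were 5. This comparison and the next share the Dox islet libraries with the first, so a value that is unusual in those libraries enters all 3. Beta cell markers took 0.0161 to 0.0337% of signal in macrophages against 0.983 to 1.05% in Dox islets, and all 13 were called lower.

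Higher in macrophages than in Dox islets were Ppp1r15a (3.90, SE 0.42, adjusted p = 5.79e-05; means 6938 ± 423 and 548 ± 407), Ddit3 (1.77, SE 0.33, adjusted p = 0.0016) and Sdf2l1 (1.41, SE 0.29, adjusted p = 0.00299). Edem1 followed, with 10962, 11224 and 10114 in macrophages and 5213, 5236 and 4827 in Dox islets (1.08, SE 0.18, adjusted p = 0.000706). Hspa5 was higher by 0.99 (SE 0.24, adjusted p = 0.00755) and Calr by 0.70 (SE 0.22, adjusted p = 0.0257). Hspa5 lost the call with no filter on low values, and Calr in 5 alternatives.

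Lower in macrophages were the amino acid and glutathione genes Chac1 (-3.73, SE 0.52, adjusted p = 0.000288; means 32.2 ± 12.1 and 457 ± 230.2) and Asns (-3.29, SE 0.59, adjusted p = 0.00124; means 211 ± 204 and 1522 ± 80.9). Wfs1 was 6.39-fold lower on the means (-2.78, SE 0.43, adjusted p = 0.000516) and Ero1lb 6.67-fold lower (-2.72, SE 0.27, adjusted p = 3.37e-05). Ssr3 (-1.18), Dnajc3 (-0.99), Sec23b (-0.92) and Ero1l (-0.86) were lower by less. Ssr3 and Dnajc3 lost the call in 5 alternatives each, and Ero1l in 4. The part of the lower beta cell markers in these differences was not tested.

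The sensors were not called against islets: Ern1 differed by -0.26 (adjusted p = 0.331), Eif2ak3 by -0.13 (adjusted p = 0.652), Atf6 by 0.53 (adjusted p = 0.0591), Xbp1 by -0.19 (adjusted p = 0.417) and Atf4 by 0.44 (adjusted p = 0.135). The Atf6 libraries did not overlap, and Atf6 was called higher in 5 alternatives. Hsp90b1 and Derl3 were not called, at -0.53 (adjusted p = 0.325) and -0.40 (adjusted p = 0.626). Among 106 other pathway genes, 12 were higher and 32 lower (21.3% and 31.4% over all genes), with a median of -0.34. The largest rises were in Slc7a11 (5.41, SE 0.20, adjusted p = 7.77e-07), Gdf15 (5.38, SE 0.52, adjusted p = 3.09e-05) and Atf3 (5.33, SE 0.37, adjusted p = 5.01e-06), the largest falls in Gpx8 (-6.08, SE 0.53, adjusted p = 1.73e-05), Vldlr, a lipoprotein receptor (-5.86, SE 0.46, adjusted p = 1.02e-05), and Fkbp14 (-4.41, SE 0.37, adjusted p = 1.34e-05).

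The last comparison set sorted endothelial cells against whole Dox islets. Here 14 of the 40 genes were lower and 1 higher, with 21.6% of 14218 genes lower, 11.5% higher and 33.1% called in all. The median log2 difference was -0.62 against 0.00 over all genes, and 33 of the 40 estimates lay below 0. Chaperones made up 5 of the 14. The count of lower genes was 26 without Dox islet replicate 1, and 9, 8 and 9 without endothelial replicate 2, endothelial replicate 3 and Dox islet replicate 2. All 13 beta cell markers were lower too, at 0.00262 to 0.00318% of signal in endothelial cells; their part in the differences was not tested.

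Ero1lb was 33.6-fold lower in endothelial cells than in Dox islets (-5.04, SE 0.25, adjusted p = 6.99e-06), and Wfs1 5.41-fold lower (-2.44, SE 0.29, adjusted p = 0.000309). Ern1 was 3.45-fold lower (-1.78, SE 0.18, adjusted p = 0.000119), with 838, 886 and 975 in endothelial cells and 3225, 2640 and 3447 in Dox islets. Then came Sdf2l1 (-1.61, SE 0.31, adjusted p = 0.00394), Dnajb9 (-1.32, SE 0.26, adjusted p = 0.00467) and Hyou1 (-1.31, SE 0.22, adjusted p = 0.00186), co-chaperones and cofactors of BiP. BiP's own gene, Hspa5, had 11014, 11457 and 10649 against 13793, 21476 and 14235; the groups did not overlap, but the difference of -0.55 (SE 0.21, adjusted p = 0.0776) did not pass. Herpud1 (-1.30), Canx (-1.01), Ssr1 (-0.82), Pdia6 (-0.76), Asns (-0.76), Manf (-0.71), Xbp1 (-0.70) and Sec23b (-0.61) were the other lower genes. Ero1lb, Wfs1, Ern1, Sdf2l1, Dnajb9, Hyou1, Herpud1 and Ssr1 passed in every alternative run for this comparison.

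Chac1 was the gene that was higher, with 909, 734 and 1038 in endothelial cells and 715, 272 and 385 in Dox islets. All 3 endothelial libraries lay above the islet libraries, by a small margin over Dox islet replicate 1 (1.07, SE 0.35, adjusted p = 0.0468). Without Dox islet replicate 1 the difference was 1.45 (adjusted p = 0.000902), and the call was lost with any other library left out, with no filter, with the 4 groups fitted together and in a fit weighted by depth (voom on estimated reads). Ppp1r15a had 1135, 1055 and 903 in endothelial cells and 1018, 306 and 320.4 in Dox islets, and overlapped through Dox islet replicate 1 (1.14, SE 0.44, adjusted p = 0.0771). Atf4 (0.42, adjusted p = 0.123), Atf6 (-0.27, adjusted p = 0.324), Eif2ak3 (0.0871, adjusted p = 0.728), Ddit3 (0.11, adjusted p = 0.84), Hsp90b1 (-1.04, adjusted p = 0.0922) and Derl3 (-0.47, adjusted p = 0.427) were not called. Of 105 other pathway genes, 4 were higher and 17 lower (11.5% and 21.6% over all genes), with a median of -0.16. They included Atf3 (1.77, SE 0.37, adjusted p = 0.00672), the disulfide isomerase gene Pdia5 (1.30, SE 0.30, adjusted p = 0.0096) and Eif2ak4, the amino acid sensor kinase GCN2 (1.18, SE 0.23, adjusted p = 0.00488), on the higher side, and Vldlr (-7.18, SE 0.61, adjusted p = 5.65e-05), the transcription factor gene Creb3l1 (-3.83, SE 0.28, adjusted p = 2.8e-05) and Slc7a11 (-2.91, SE 0.40, adjusted p = 0.000662) on the lower. With no filter 10 were called in place of 21.

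**Figure D5:**
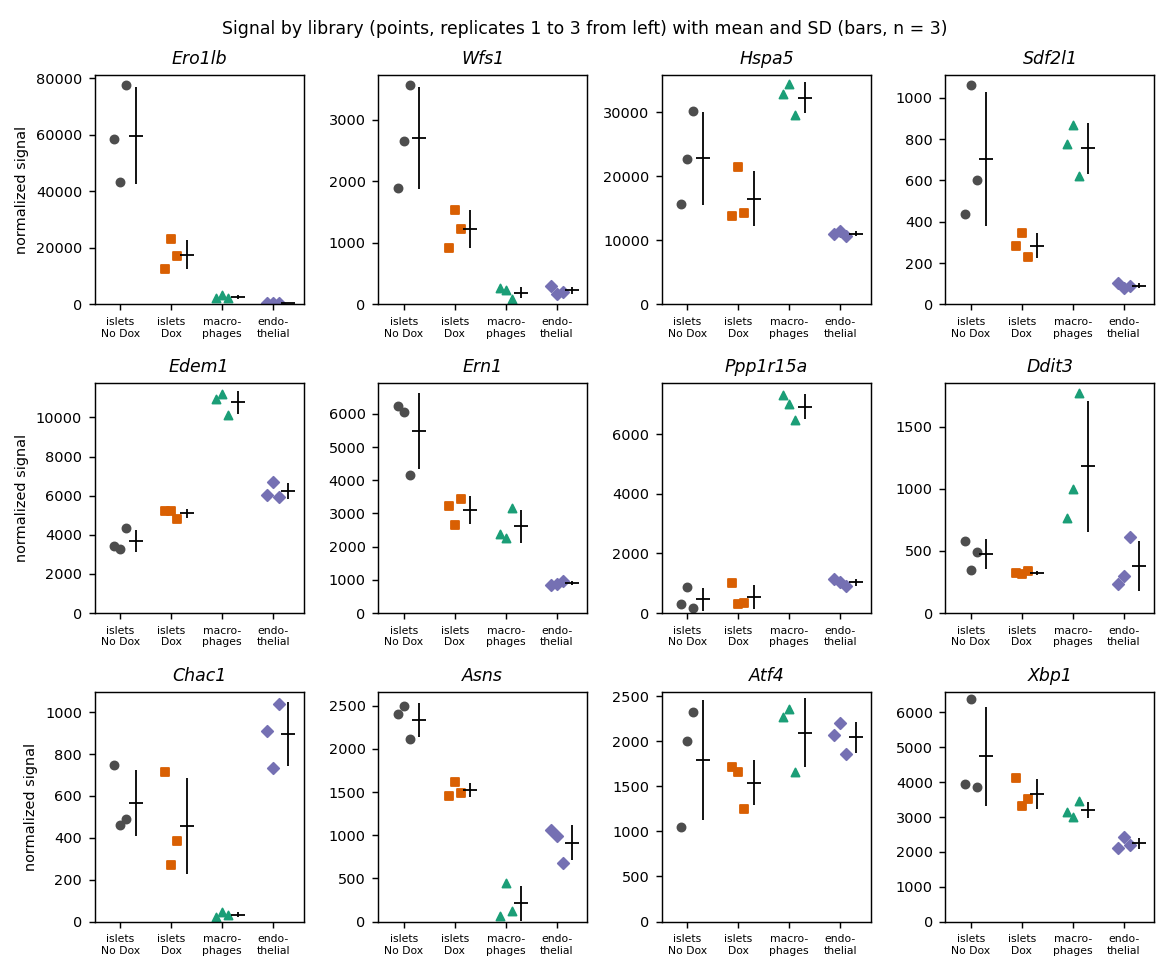
Authors' normalized signal (vertical axes, each from 0) of 12 of the genes in the 4 groups; points are libraries, replicates 1 to 3 from left, and bars are the mean and SD (n = 3). Ero1lb, Wfs1 and Asns are highest in No Dox islets, Hspa5, Edem1, Ppp1r15a and Ddit3 are highest in macrophages, and Chac1 is near 0 in macrophages alone of the 4 groups.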

How the data were processed

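The authors deposited 1 table of normalized expression signal for 12 libraries; the submitters' processing notes name TopHat2 2.0 and mm9, and the normalization method is not given in the sources used here. Per the labels' protocols, RNA was amplified before library preparation and sequenced on an Illumina instrument. The deposited signal values are linear with a floor of 1. Of the values between 1 and 50, 99.75 to 99.98% in each library lay within 0.05 of a whole multiple of a hundredth of the commonest value above the floor, but 40.0 to 56.2% lay within 0.1 of a whole multiple of that value itself. Whole reads were therefore not recovered; dividing by that value gave estimated reads with fractions, used for depth and for 1 depth-weighted fit (voom in limma), added after the data were seen. Of 22793 entries, 25 symbols turned into dates were restored, and the entry with the highest mean was kept for each of 76 repeated symbols. Gene spans of all 40 genes were equal to GENCODE M1.

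Comparisons used log2(signal + 1), limma 3.58.1 in R 4.3.3 with a variance trend, the 6 libraries of the 2 groups, genes at or above 15.5 (the 40th percentile of non-zero values) in at least 3 libraries, and Benjamini-Hochberg adjustment over all genes tested, with a threshold of 0.05. Values at the floor of 1 were counted in that percentile. Fold values are ratios of mean signal. The scripts were tested on simulated data. Same-numbered macrophage and endothelial libraries deviated together (correlations of 0.23, 0.41 and 0.36), so their numbers were taken to pair them.

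The genes, the pathway lists and the alternatives were chosen with earlier results of these data known. Named in each comparison were all genes past the threshold up to 12 or otherwise the 6 largest each way, plus 11 set genes; other genes are given to fill in their role. Of the other pathway genes, the 3 largest called each way were named. Vimp and Spcs3 were not matched by symbol. Marker lists for plasma and B cells, neutrophils and dendritic cells were also summed; each took at most 0.125% of signal in any library. Protein sequences were not analysed here.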

Additional observations from a re-analysis of the deposited data

How the results depend on the processing

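Alternatives were no filter on low values, a pseudocount of 16, quantile normalization, median ratio rescaling, removal of each library's GC trend, 1 fit of the 4 groups, the replicate block, each library left out, in islets both GC-following libraries left out, and, chosen after seeing the data, voom weights on estimated reads. Named genes gave 893 recomputed values, of which 804 kept direction and side of the threshold, 48 no longer passed, 18 newly passed and 23 changed sign. Counts moved by over 1.5 times as follows. Genes lower in Dox islets (1) became 0 with no filter, 2 with quantile normalization, 5 with GC trends removed, 4 with the 4-group fit, and 0 to 1 with a library left out. Genes lower in macrophages than in endothelial cells (4) became 2 with no filter, 2 with GC trends removed and 2 in the 4-group fit. Genes lower in macrophages than in Dox islets (8) ranged from 5 to 15 with a library left out. Genes higher in endothelial cells than in Dox islets (1) became 0 with no filter, 2 with GC trends removed, 0 in the 4-group fit, 0 with voom and 0 to 4 with a library left out, and genes lower there (14) ranged from 8 to 26. Quantile normalization moved the median of all genes from -0.20 to 0.12 for macrophages against Dox islets, from 0.00 to 0.29 for endothelial cells against Dox islets and from 0.11 to -0.04 in islets. The cause of these shifts was not tested.

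With the replicate block, no gene was lower in Dox islets (0, with Ero1lb at an adjusted p of 0.0706), and 2 were higher in endothelial cells than in Dox islets; same-numbered libraries of these comparisons did not all deviate together (correlations of -0.25, -0.54 and 0.16 in islets, 0.21, 0.04 and 0.03 for macrophages and 0.29, 0.00092 and 0.068 for endothelial cells against Dox islets). In islets No Dox replicate 2 correlated best with Dox replicate 1 (0.78). The block gave 24 higher and 4 lower genes between the sorted cells, 6 and 10 for macrophages and 2 and 20 for endothelial cells against Dox islets.

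None of the genes that changed sign had passed the threshold. In islets, with a library left out, Hsp90b1 ranged from -0.90 to 0.0195, Atf6 from -0.20 to 0.0719, Derl3 from -1.10 to 0.21 and Atf4 from -0.50 to 0.0729; without both GC-following libraries Derl3 was 0.22 and Atf6 0.0202. Between the sorted cells Derl3 ranged from -0.40 to 0.64, Atf4 from -0.071 to 0.18 and Wfs1 from -0.62 to 0.13 with a library left out, while Derl3 was -0.13 after quantile normalization and -0.22 with voom, and Atf4 -0.0431 with GC trends removed. For macrophages against Dox islets Derl3 was 0.46 after quantile normalization and -0.87 to 0.17 with a library left out, and Eif2ak3 0.0352 with GC trends removed. For endothelial cells against Dox islets Derl3 was 0.60 after quantile normalization, and Ddit3 -0.16 with GC trends removed and -0.29 to 0.39 with a library left out. Low values rest on few estimated reads: in macrophages Derl3 had 17.8, 26.7 and 20.9, and Trib3 6, 9 and none (0).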

Other observations

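Exons of 9 of the 40 genes share bases with another gene in GENCODE M1. Apart from Hsp90b1 these are Ddit3 (3.97% of its exon bases, with Mars), Manf (4.14%, with Vprbp), Derl2 (2.87%, with Mis12), Syvn1 (1.71%, with Mrpl49), Pdia6 (1.34%, with Atp6v1c2), and Pdia3, Pdia4 and Ppp1r15a under 1%. Reads from bases shared with a gene on the opposite strand cannot be assigned to one gene where strand is not known. On its own strand Hsp90b1 shares 3.30% of its exon bases with AC152453.1 and 2.08% with Gm15344. Pdia4 shares its bases with Mir704 on the same strand. For these, knowing the strand would not assign the reads.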
